A study of Mus musculus with 10 samples.

Results

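Transcripts of 10 genes that mark injured or stressed kidney tubules were followed in the kidneys of mice fed rilmenidine and of their controls: Havcr1, Lcn2, Spp1, Clu, Krt8, Krt18, Vcam1, Vim, Cdkn1a and Sox9. The genes were chosen by symbol and make up 10 of the 43629 genes listed in the count table, each represented by 1 row. All the mice were UM-HET3 males, a genetically mixed stock bred from a cross of inbred lines, and were killed at 4 months of age. The 6 control mice stayed on the Purina 5LG6 diet, and the 4 treated mice, which were littermates of the controls, ate the same diet with 10 ppm rilmenidine for 1 month from the age of 3 months. The study's methods give more control kidneys than the labels do, and only the labelled libraries were used here. Rilmenidine is an imidazoline-receptor ligand used against high blood pressure. Each library came from poly(A) RNA of 1 mouse, and whole-kidney RNA pools every segment of the nephron together with vessels, stroma and immune cells.

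Library depth differed between the groups. The control libraries held from 863605 to 2559118 counts in genes (median 1489031), and the rilmenidine libraries held 1813465, 1924490, 3042036 and 3232063 (median 2483263). The difference in log2 total gave p = 0.0476 by a two-sided exact permutation test. Levels below are CPM, counts scaled to library size, here with edgeR's relative log expression factors, and 3 counts, taken here as the one-sided limit that a count of 0 allows, correspond to between 0.93 and 3.33 CPM depending on the library. The Poisson intervals drawn for the sparse genes are two-sided and reach higher for a count of 0. Intervals and floors of this kind cover counting error only. Part of the labels' extraction text speaks of liver, whereas title and tissue field say kidney. The kidney genes were abundant in every library: Kap, an androgen-driven protein of proximal tubule cells, lay between 31100 and 59180 CPM and the phosphate transporter Slc34a1 between 5047 and 6960 CPM, while Alb, the main product of liver, lay between 0 and 11.8 CPM. Other genes of the liver list were not low: Ttr lay between 383.5 and 859.7 CPM, and Cyp2e1, which kidney tubules also use, averaged 2165 CPM in control and 2080 CPM in rilmenidine kidneys.

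Tubular epithelial cells that are damaged lose part of their transport programme and switch on genes that a resting kidney uses little. Havcr1 encodes KIM-1, a membrane receptor for dying cells on proximal tubules whose shed ectodomain appears in urine, and Lcn2 encodes NGAL, a secreted protein that binds iron-carrying siderophores. Spp1 (osteopontin) is a secreted matrix and mineral-binding protein and Clu (clusterin) a secreted chaperone, both of which also have a normal place in parts of the nephron. Krt8 and Krt18 encode the type II and type I keratins that pair into the filaments of simple epithelia, and Vim encodes vimentin, the intermediate filament protein of mesenchymal and endothelial cells. Vcam1 encodes an adhesion molecule for leukocytes, made by activated endothelium and by tubule cells that fail to repair. Cdkn1a (p21) inhibits cyclin-dependent kinases and is a target of p53, and Sox9 encodes a transcription factor of regenerating tubule cells.

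The starting sequences of 4 genes are shown because the comparison of rilmenidine with control turned on Spp1, the keratin pair and Cdkn1a. They are RefSeq windows on GRCm38.p6, from 250 bases before an annotated transcript start to 50 bases after it, written 5′ to 3′ on the strand of the gene. Windows were held for 7 of the 10 genes, 11 in all. Capitals mark a motif found in them. In Spp1 the capitals are a TATAAA, in Krt8 they are TATAAA overlapping its reverse complement, in the first Cdkn1a window they are ACATGT, 4 bases and ACATGT again, the paired core of p53 half-sites, and in the second they are GGGCGG, the GC box. The Krt18 window held none of the motifs searched. Of the windows not shown, Vim's held TATAAA and Lcn2's a GC box.
Spp1 (chr5:104434861-104435160, plus strand): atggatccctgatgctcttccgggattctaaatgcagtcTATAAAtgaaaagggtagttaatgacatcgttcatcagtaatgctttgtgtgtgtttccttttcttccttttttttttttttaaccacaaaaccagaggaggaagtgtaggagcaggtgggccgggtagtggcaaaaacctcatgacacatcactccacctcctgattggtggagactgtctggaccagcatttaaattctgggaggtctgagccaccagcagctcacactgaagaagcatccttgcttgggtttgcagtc
Krt8 (chr15:102004293-102004592, minus strand): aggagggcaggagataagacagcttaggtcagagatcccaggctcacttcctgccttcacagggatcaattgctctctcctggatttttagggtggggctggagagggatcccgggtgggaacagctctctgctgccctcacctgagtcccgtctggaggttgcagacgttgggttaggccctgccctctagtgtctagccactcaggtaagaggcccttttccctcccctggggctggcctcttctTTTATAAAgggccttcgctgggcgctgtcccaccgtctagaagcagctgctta
Krt18 (chr15:102027966-102028265, plus strand): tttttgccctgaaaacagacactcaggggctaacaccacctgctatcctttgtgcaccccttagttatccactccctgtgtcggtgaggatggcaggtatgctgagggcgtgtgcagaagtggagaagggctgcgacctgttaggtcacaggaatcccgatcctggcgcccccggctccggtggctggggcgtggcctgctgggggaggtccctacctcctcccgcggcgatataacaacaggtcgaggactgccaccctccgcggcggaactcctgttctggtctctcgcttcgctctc
Cdkn1a, first window (chr17:29090729-29091028, plus strand): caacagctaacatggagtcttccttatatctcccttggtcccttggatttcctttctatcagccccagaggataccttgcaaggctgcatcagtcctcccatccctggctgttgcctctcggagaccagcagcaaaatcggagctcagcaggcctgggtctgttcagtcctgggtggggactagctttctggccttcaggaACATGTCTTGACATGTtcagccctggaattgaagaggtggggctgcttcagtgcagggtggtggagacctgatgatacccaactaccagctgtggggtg
Cdkn1a, second window (chr17:29093519-29093818, plus strand): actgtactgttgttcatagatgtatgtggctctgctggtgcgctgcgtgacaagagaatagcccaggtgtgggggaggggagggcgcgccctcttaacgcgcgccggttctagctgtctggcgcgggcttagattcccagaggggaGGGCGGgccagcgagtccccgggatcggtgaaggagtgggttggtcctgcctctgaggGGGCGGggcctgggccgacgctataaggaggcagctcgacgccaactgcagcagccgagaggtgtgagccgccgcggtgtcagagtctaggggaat
Motifs were searched on both strands. TATAAA stood in 13.6% of the 32817 windows of all genes, GGGCGG in 35.6%, and the half-site pair in 4 windows, or 0.0122%. The half-site pair was searched only after the windows had been read. The 3 further motifs, TGACTCA for AP-1 (in 5.2% of all windows), GGGAC or GGGAA followed directly by TTTCC for NF-kB (0.244%) and TTCNNNGAA for STAT (8.29%), were not found in any of the 11 windows.

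In control kidneys Spp1 and Clu were the most abundant of the 10 transcripts. Divided by the length of the gene's merged exons, the mean control level was 88.4 ± 26.5 CPM per kilobase for Spp1 and 36.4 ± 11.5 for Clu (SD, n = 6). Krt8 followed at 15.3 ± 4.54 CPM per kilobase, then Cdkn1a at 5.56 ± 3.75, Krt18 at 4.95 ± 2.41 and Vim at 3.54 ± 0.514. Havcr1 reached 2.06 ± 1.64, Vcam1 0.688 ± 0.367, Lcn2 0.248 ± 0.281 and Sox9 0.22 ± 0.159 CPM per kilobase. On this scale, only the steps from Spp1 to Clu and from Clu to Krt8 separated genes whose control ranges did not overlap, although Krt8 also stood above Cdkn1a, and Havcr1 above Vcam1, in 6 of the 6 control kidneys. These libraries tag the 3′ end of a transcript, so that length need not enter the level. Without length, the control ranges of Spp1 (109.7 to 226.1 CPM) and Clu (96.4 to 202 CPM) overlapped, and Clu was above Spp1 in control 2. Krt18 then changed places with Vim, Havcr1 with Vcam1, and Lcn2 with Sox9. Krt8 kept its place above Cdkn1a by mean, but was below it in control 3 (16.4 against 20.5 CPM) and control 5 (25.1 against 45.1 CPM). By mean CPM over the control kidneys, Spp1 ranked 1040 and Clu 1258 among the 43629 genes, whereas Sox9 ranked 13962 and Lcn2 15056.

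**Figure D1:**
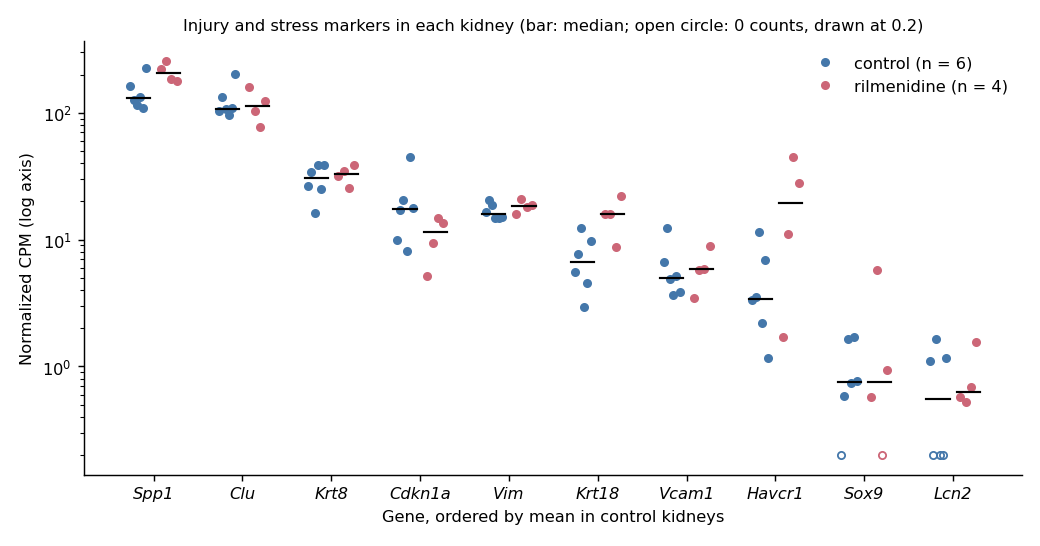
Normalized CPM on a log axis for each of the 10 genes in each of the 10 kidneys, 6 control and 4 rilmenidine. The 10 genes spanned from Spp1 and Clu near 100 CPM down to Lcn2 and Sox9 at or under a few CPM, and the groups overlapped for each gene.

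The genes also differed in how much control kidneys varied. Vim was the steadiest, with a coefficient of variation of 14.5% over the 6 controls, where counting alone would give 20.4%. For Spp1 the spread was 30.0% against 6.94% from counting, and for Clu 31.6% against 7.49%. Both leaned on control 6, at 226.1 CPM for Spp1 and 202 CPM for Clu, where the control medians were 130.3 and 108 CPM. Cdkn1a varied by 67.4% against 18.8%, the widest spread of the 7 genes that had enough reads to be tested. That spread leaned on control 5, at 45.1 CPM where the control median was 17.45 CPM. Spreads and their order were not computed with a control left out. Among the 3 sparse genes, the spread of Lcn2 (113% against 104%) and Sox9 (72.3% against 87.9%) was of the size that counting gives. Havcr1 varied more than counting gives, by 79.9% against 38.4%.

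Of the 10 genes, 7, Spp1, Clu, Krt8, Krt18, Vcam1, Vim and Cdkn1a, reached 6 reads in 7 or more of the 10 libraries and entered the edgeR quasi-likelihood test of rilmenidine against control over 10055 genes. Havcr1 had 6 reads or more in 6 kidneys, Sox9 in 1 and Lcn2 in 0, and these 3 are given by their counts. None of the 7 passed at a Benjamini-Hochberg adjusted p of 0.05, with adjusted p from 0.285 to 0.987, and 0.0% of all genes did, the smallest adjusted p in the table being 0.173. At an unadjusted p under 0.05 were Krt18 and Spp1, higher in rilmenidine, and Cdkn1a, lower. That is 3 of 7, where 10.6% of all genes tested met the same limit, 4.43% higher and 6.13% lower. The median log2 fold change of the 7 was 0.10, and of all tested genes 0.0021. For all 10 genes the control and rilmenidine ranges overlapped, and 1.69% of all genes tested had ranges that did not. The mice are separate animals, but p-values here measure the spread between these 10 libraries, which also carries preparation and depth. In whole tissue, fewer cells of a type and less RNA per cell cannot be told apart.

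**Figure D2:**
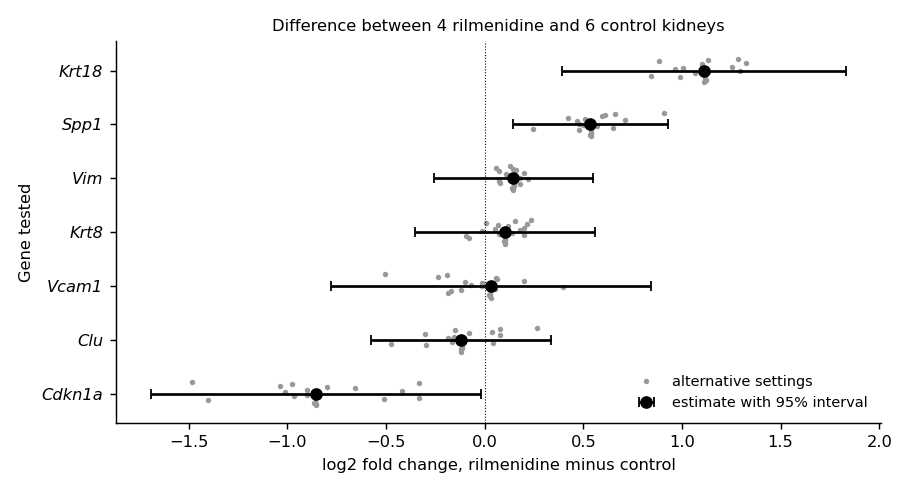
Log2 fold change of rilmenidine over control for the 7 genes tested, with bars for the 95% confidence interval from the edgeR quasi-likelihood fit. The intervals of Krt18 (0.39 to 1.83) and Spp1 (0.14 to 0.93) lay above 0, that of Cdkn1a (-1.69 to -0.02) below it, and those of Clu, Krt8, Vcam1 and Vim crossed it.

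Of the 4 secreted and shed markers, Spp1 and Clu passed the filter, and of these Spp1 had an unadjusted p under 0.05. Spp1 (ENSMUSG00000029304, chr5:104435118-104441050, plus strand, in GENCODE M21 on GRCm38, as for the genes that follow) lay between 109.7 and 226.1 CPM in control kidneys with a median of 130.3, and at 223.6, 256.0, 186.2 and 179.8 CPM in rilmenidine kidneys 1 to 4. All 4 treated kidneys stood above 5 of the 6 controls, and control 6 stood among them, above 3 of the 4. The means were 146 ± 43.7 (SD, n = 6) and 211 ± 35.5 CPM (SD, n = 4). The log2 fold change was 0.54 (SE 0.19), 1.45-fold, with adjusted p = 0.321 by edgeR and rank 333 of 10055 by p. With Malat1, a nuclear RNA that was uneven between the libraries, as a covariate it was 0.24 (SE 0.21, unadjusted p = 0.255 by edgeR). With log2 library depth in the fit instead it was 0.48 (SE 0.23), with an unadjusted p of 0.0501 by edgeR, barely above 0.05. Without control 6 the adjusted p was 0.0559 and the log2 fold change 0.71.

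Malat1 moved with the groups and with part of the controls. It stood at 1466, 391.3, 1165, 1452, 2074 and 281.8 CPM in controls 1 to 6 and between 304.0 and 390.7 CPM in the 4 rilmenidine kidneys. Controls 2 and 6 therefore resembled the treated kidneys in this RNA. A set of olfactory and vomeronasal receptor genes, which kidney cells hardly use, summed to at least 10 CPM in 7 libraries and to less in control 6 and rilmenidine 3 and 4. Over the 7 libraries alone, 5 control and 2 rilmenidine, Spp1 had a log2 fold change of 0.91 (SE 0.17, adjusted p = 0.252, edgeR quasi-likelihood test). The libraries left out held the control with the most Spp1 (control 6, 226.1 CPM) and the treated kidneys with the least (186.2 and 179.8 CPM). The part of either measure in the difference was not tested.

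Clu showed no difference beyond the spread in the fit without covariates. Clu (ENSMUSG00000022037, chr14:65968483-65981547, plus strand) ranged from 96.4 to 202 CPM in controls, median 108, and reached 159.4, 103.8, 77.8 and 123.7 CPM in rilmenidine kidneys 1 to 4. Control 6 was the highest of all 10 kidneys and rilmenidine 3 the lowest. The log2 fold change was -0.12 (95% interval -0.58 to 0.34, adjusted p = 0.908 by edgeR), and the sign turned without control 6 (0.08) and without rilmenidine 3 (0.03). With Malat1 as a covariate the log2 fold change was -0.48 (SE 0.22, unadjusted p = 0.0445 by edgeR), which did not pass after adjustment.

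Havcr1, the marker of proximal injury, was at 3 counts in 4 of the 10 kidneys and high in 2 of the treated ones. The Havcr1 row (ENSMUSG00000040405, chr11:46735080-46779578, plus strand) held 3, 6, 14, 3, 12 and 3 counts in controls 1 to 6 and 3, 21, 130 and 90 counts in rilmenidine kidneys 1 to 4. As levels, the controls lay between 1.16 and 11.4 CPM, and the rilmenidine kidneys at 1.72, 11.1, 45.2 and 27.9 CPM. Rilmenidine 3 and 4 were above every control, rilmenidine 2 was within the control range just under control 3, and rilmenidine 1 was among the low controls. The mean log2 level was 1.56 higher in the rilmenidine group, with p = 0.133 by a two-sided exact permutation test over 210 splits, whose smallest possible p is 0.00952. Left out in turn, the kidneys moved this exact permutation p from 0.0476 without rilmenidine 1 to 0.333 without rilmenidine 3. With no filter on low counts the edgeR quasi-likelihood test gave Havcr1 a log2 fold change of 2.30 and an adjusted p of 5.93e-11. Havcr1 also entered the filtered edgeR test without control 1, 4 or 6 or rilmenidine 1, where the log2 fold change was 2.01 to 2.65 and the adjusted p from 0.0604 to 0.523, so it was not called there. The cause of this gap was not tested. The 2 high kidneys were also the 2 deepest libraries, at 3042036 and 3232063 counts, and their receptor RNA was low, at 4.27 and 7.43 CPM. They also had the highest sums of proximal tubule genes, 85370 and 76830 CPM against at most 69950 in the others. The same held for thick ascending limb genes (3101 and 3285 against at most 2583 CPM) and principal-cell genes (507.9 and 503.5 against at most 426.7 CPM). Kap made up most of the proximal sums, at 59180 and 48790 CPM. Slc34a1 stood at 5047 CPM in rilmenidine 3, the lowest of the 10 kidneys, and at 6270 CPM in rilmenidine 4. Of the principal-cell sums, Aqp4 alone held 187.6 and 97.0 CPM, against 10.9 to 31.1 CPM in the others. Sums without Kap or Aqp4 were not computed. The part of these measures in Havcr1 was not tested.

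**Figure D3:**
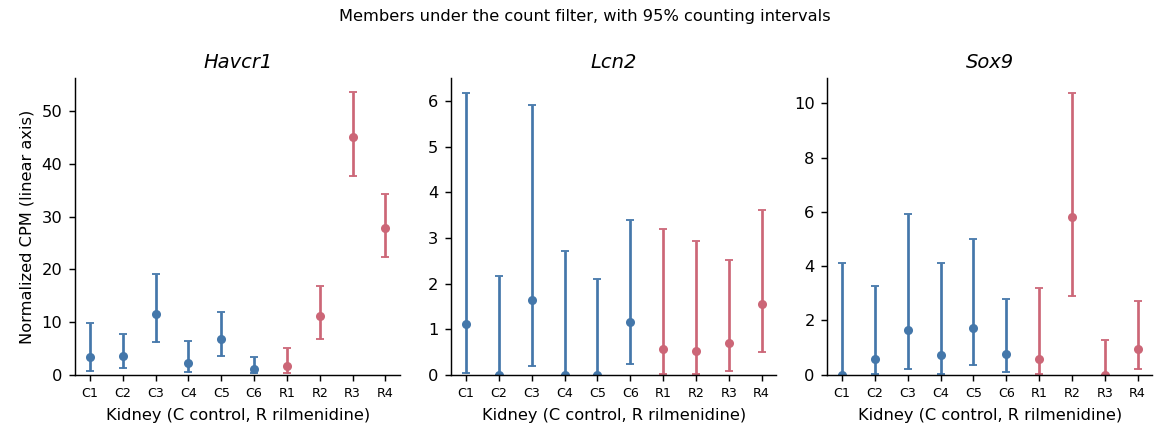
Normalized CPM of Havcr1, Lcn2 and Sox9, the genes too sparse for the count model, in each kidney with bars for the 95% Poisson interval of the count. Havcr1 was highest in rilmenidine 3 and 4, at 45.2 and 27.9 CPM, and the Lcn2 and Sox9 intervals were wide beside their levels.

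The other 2 sparse members gave little signal. Lcn2 (ENSMUSG00000026822, chr2:32384633-32388252, minus strand) had 1, 0, 2, 0, 0 and 3 counts in the controls and 1, 1, 2 and 5 in the treated kidneys, so no difference was detectable at this depth (exact permutation p = 0.486). Sox9 (ENSMUSG00000000567, chr11:112782224-112787760, plus strand) had 0, 1, 2, 1, 3 and 2 counts in the controls and 1, 11, 0 and 3 in the treated kidneys. Rilmenidine 2 alone stood above the controls, at 5.79 CPM, and without it the difference in mean log2 level changed from 0.24 to -0.31 (exact permutation p = 0.686 with all kidneys). Rilmenidine 3 and 4, the kidneys with the most Havcr1, had 0 and 3 Sox9 counts.

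Of the filament genes, Krt18 had the largest fold change among the 7 genes tested, while its partner Krt8 lay inside the control range. Krt18 (ENSMUSG00000023043, chr15:102028180-102032027, plus strand) lay between 2.94 and 12.3 CPM in controls, median 6.61, and at 16.1, 15.8, 8.68 and 22.01 CPM in rilmenidine kidneys 1 to 4. In all, 3 of the 4 treated kidneys were above every control, and rilmenidine 3 fell within the control range. In counts these were 5, 13, 15, 4, 8 and 25 against 28, 30, 25 and 71. The log2 fold change was 1.11 (SE 0.34), 2.16-fold, with adjusted p = 0.285 by edgeR and rank 164 of 10055 by p. With no filter on low counts the adjusted p was 0.0328 at the same fold change, and with Malat1 as a covariate the log2 fold change was 0.84 (SE 0.42), with an unadjusted p above 0.05.

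Krt8 (ENSMUSG00000049382, chr15:101996698-102004482, minus strand) lies beside Krt18, 23698 bases away. It ranged from 16.4 to 39.0 CPM in controls, median 30.4, and was 31.5, 34.8, 25.4 and 38.8 CPM in the treated kidneys, all inside the control range. The log2 fold change was 0.10 (95% interval -0.35 to 0.56, adjusted p = 0.923 by edgeR). A near copy of each gene exists in the genome, Krt8-ps over 941 bases and Gm5200 over 1267 bases at 90% identity or more. Reads of these copies and of the genes could not be separated here, and the copies were not used.

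The ratio of the keratins was examined after their separate values had been seen. Krt18 counts were 20.8, 22.4, 75.0, 7.55, 18.2 and 25% of Krt8 counts in controls 1 to 6 and 50.9, 45.5, 34.2 and 56.8% in rilmenidine kidneys 1 to 4. Of the 6 controls, 5 lay below all the treated kidneys, and control 3, the kidney with the least Krt8, lay above them. The difference in log2 ratio was 1.00 with p = 0.0857 by an exact permutation test, and without control 3 it was 1.34 with p = 0.0159. With any of the other 9 kidneys left out, it was 0.702 to 1.14 with exact permutation p from 0.0952 to 0.19. Across the 10 kidneys, with group means removed, Krt8 and Krt18 had no pooled relation beyond the permutation spread (Pearson r = -0.152, permutation p = 0.681, Spearman rho = -0.00606, permutation p = 1.0), but without controls 3 and 4, the kidneys farthest from the median of Krt8, r was 0.955. Controls 3 and 4 had 15 and 4 Krt18 counts, so the pooled value rested on them.

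**Figure D4:**
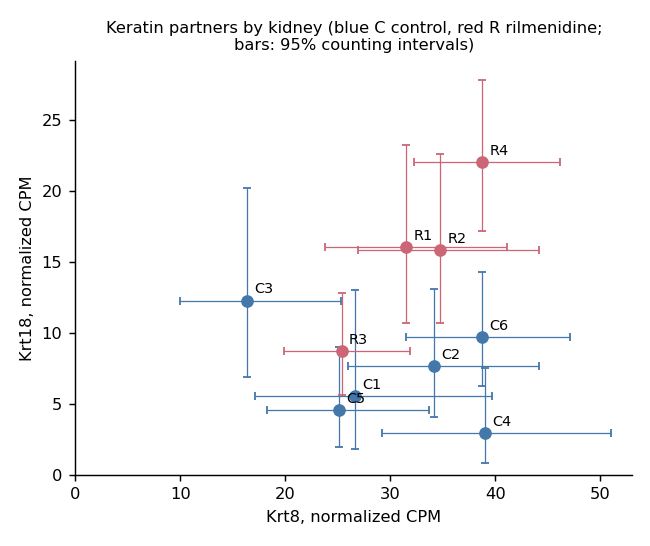
Krt18 against Krt8 in normalized CPM for each kidney, with bars for the 95% Poisson intervals of the counts. In Krt18, 3 rilmenidine kidneys lay above every control while all 4 lay within the control range of Krt8.

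Vim (ENSMUSG00000026728, chr2:13573927-13582826, plus strand) ranged from 14.7 to 20.6 CPM in controls, median 15.9, and was 16.1, 21.1, 18.1 and 18.6 CPM in the treated kidneys. Rilmenidine 2 was a little above every control and the other 3 lay among them, and the log2 fold change was 0.14 (95% interval -0.26 to 0.55, adjusted p = 0.847 by edgeR). Vcam1 (ENSMUSG00000027962, chr3:116109949-116129688, minus strand) ranged from 3.68 to 12.4 CPM in controls, median 5.03, and was 3.44, 5.79, 5.91 and 8.99 CPM in the treated kidneys. Control 2 was the highest and rilmenidine 1 the lowest of the 10. The log2 fold change was 0.03 (95% interval -0.78 to 0.84, adjusted p = 0.987 by edgeR), an interval wide enough to hold a change of either sign. With group means removed, Vcam1 and Vim varied together over the 10 kidneys (Pearson r = 0.731, permutation p = 0.0155, adjusted over 3 pairs 0.0464; Spearman rho = 0.745, permutation p = 0.0177, adjusted 0.053), and r was 0.608 without control 2 and rilmenidine 4. Spp1 and Clu had r = 0.572 (permutation p = 0.0849, adjusted 0.127) and rho = 0.321 (permutation p = 0.368, adjusted 0.551), and r was 0.211 without control 6 and rilmenidine 2.

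Cdkn1a had a lower mean in the treated group, by an amount that varied with the kidneys and covariates used. Cdkn1a (ENSMUSG00000023067, chr17:29090976-29100727, plus strand) stood at 9.99, 17.1, 20.5, 8.10, 45.1 and 17.8 CPM in controls 1 to 6 and at 5.16, 9.48, 14.9 and 13.6 CPM in rilmenidine kidneys 1 to 4. Control 5 had more than any other kidney, and the remaining controls overlapped with 3 of the 4 treated ones. The log2 fold change was -0.86 (SE 0.40, 95% interval -1.69 to -0.02), 0.552-fold, with adjusted p = 0.463 by edgeR and rank 988 of 10055 by p. Without control 5 it was -0.42 (SE 0.33), and with Malat1 as a covariate -0.51 (SE 0.48), both with an unadjusted p above 0.05. The unadjusted p was also above 0.05 without control 3 (-0.85), rilmenidine 1 (-0.66) or rilmenidine 2 (-0.80). In the other direction, the log2 fold change was -1.40 (SE 0.50) with log2 library size as a covariate and -1.48 (SE 0.59) in the 7 libraries with at least 10 CPM of receptor genes. The half-site pair printed in capitals for the first Cdkn1a window is a match of letters, and binding was not measured.

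Other measures are given here for 4 kidneys that stood apart in 1 gene. Control 5, highest in Cdkn1a, had the most Malat1, 2074 CPM. Of 21 tested p53 targets and arrest genes, 2 were at their control maximum in it (9.52%, near the 15.5% of all genes tested). Control 2, highest in Vcam1, was the highest control for 9 of 11 immune genes (81.8%, against 17.5% of all genes), with an immune sum of 818.4 CPM where the other controls lay between 227.4 and 438.2, and a blood sum of 8657 CPM. Control 2 was also the highest control for 6 of 14 stromal genes (42.9%), 5 of 14 endothelial genes (35.7%) and 3 of 3 liver genes. Control 6, highest in Clu, was the highest control for 5 of 8 intercalated-cell genes (62.5%, against 16.8%), with a sum of 459.5 CPM. It was also the highest control for 3 of 6 thin limb and inner medulla genes, 2 of 4 parietal, 3 of 9 principal-cell and 6 of 19 proximal genes. For thick ascending limb (1 of 7), stromal (1 of 14) and immune genes (0 of 11), among others, its share was below that of all genes. Rilmenidine 1, next in Clu, had the highest intercalated sum of all, 492.6 CPM, and rilmenidine 3, lowest in Clu, the lowest, 230.3 CPM. In the distal convoluted tubule sum, control 6 was also the highest of all, at 1306 CPM, and rilmenidine 3 the lowest, at 626.0 CPM. Rilmenidine 1 had 1042 CPM there, below control 4 (1063 CPM), and control 6 was the highest control for 2 of 6 genes tested. In the principal-cell sum, control 6 was the highest control (409.5 CPM), but rilmenidine 3 was the highest of all (507.9 CPM, of which Aqp4 held 187.6). Rilmenidine 2, the one kidney with Sox9 reads well above the rest, had the highest sum of urothelial genes, 60.1 CPM against 4.09 to 33.8 in the others. It also had the highest sum of proliferation genes, 339.2 CPM against 157.9 to 266.1, and of adrenal and fat genes, 159.1 CPM against 71.99 to 149.9. It held 29 counts of Upk1b, a surface protein of the lining of the renal pelvis, beside 25 in rilmenidine 4, 8 in rilmenidine 3 and 0 to 2 in the rest. These were chosen after the member values had been seen, and the part of these cell types in the levels was not tested.

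**Figure D5:**
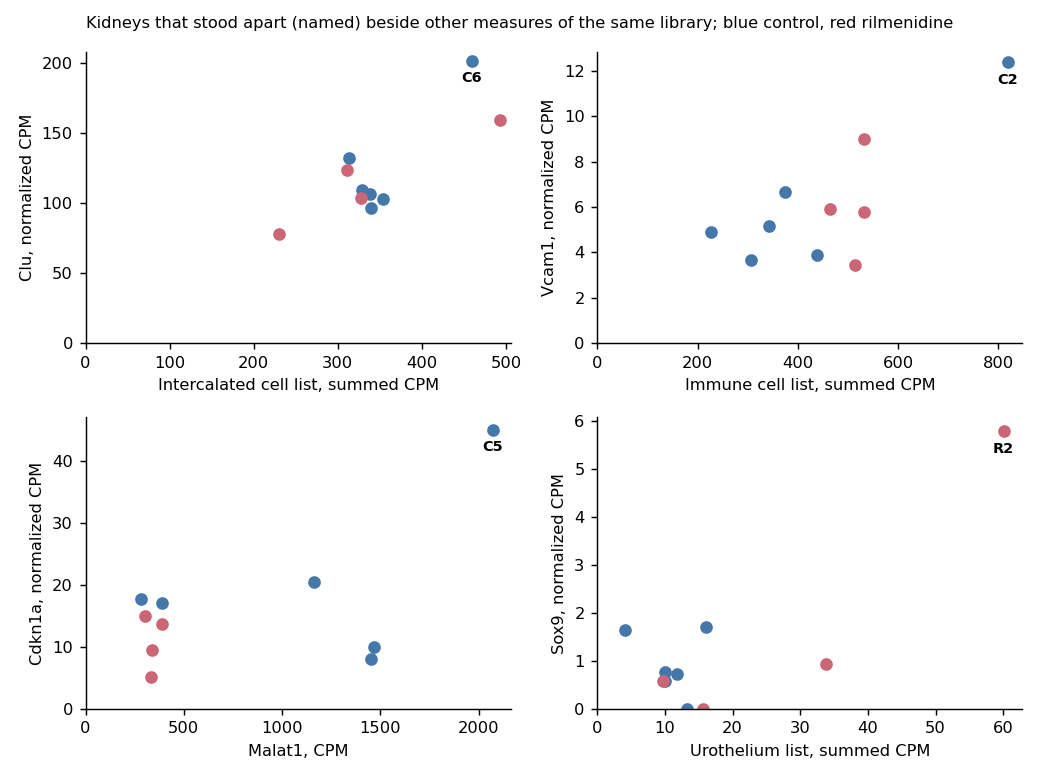
Each of 4 genes against another measure of the same library, in CPM: Clu with the sum of the intercalated-cell genes, Vcam1 with that of the immune genes, Cdkn1a with Malat1, and Sox9 with the urothelial sum. The named kidney stands apart in its gene in each panel, and C2, C5 and R2 also have the highest value on the horizontal axis, while C6 comes second to a rilmenidine kidney.

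Summed over the 10 genes, controls 1 to 5 lay between 301.7 and 355.3 CPM and control 6 at 516.0 CPM, against 458.2, 464.1, 382.8 and 435.9 CPM in rilmenidine kidneys 1 to 4. Control 6 was the highest and controls 1 to 5 were below every treated kidney. Spp1 and Clu made up most of each sum. Without them the groups overlapped, with controls between 69.96 and 103.4 CPM and the treated kidneys at 75.12, 104.3, 118.8 and 132.4 CPM, and rilmenidine 1 lay below 4 of the controls.

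Genes that follow injury more widely were given the same fit. Of 45 further markers of injured tubules, 29 were tested, and 7 had an unadjusted p under 0.05, all higher in rilmenidine and none with adjusted p under 0.05 (24.1%, against 4.43% higher among all genes); the median log2 fold change of the 29 was 0.21. Those 7 were Umod, Egf, S100a10, Tagln2, S100a6, S100a11 and Pdgfb. Umod (uromodulin) and Egf are normal products of the thick ascending limb that kidney injury is known to lower, and they are in the list as such. Umod had 1063 ± 201 CPM in control and 1623 ± 385 CPM in rilmenidine kidneys (SD), with a log2 fold change of 0.61 (SE 0.17, edgeR adjusted p = 0.244). S100a10, a calcium-binding-family partner of annexin A2, had 0.44 (SE 0.15), and Tagln2, an actin-binding protein, 0.38 (SE 0.14). With Malat1 as a covariate 2 of the 29 were higher and 1 lower, where 3.02% of all genes tested had an unadjusted p under 0.05 in either direction.

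Of 30 p53 targets and arrest genes 21 were tested, of which 0 were higher and 1, Cdkn1b (p27, another inhibitor of cyclin-dependent kinases), was lower at unadjusted p under 0.05 (4.76%, against 6.13% lower among all genes), and the median log2 fold change was -0.11. Summed over the list, which does not hold Cdkn1a, the treated kidneys lay between 606.2 and 644.0 CPM, below every control (684.4 to 777.3 CPM), but without Cdkn1b the ranges overlapped (546.1 to 594.3 against 573.2 to 660.7 CPM). Cdkn1b lay between 77.2 and 116.6 CPM in controls and between 49.6 and 83.8 CPM in treated kidneys, with a log2 fold change of -0.72 (SE 0.17, edgeR adjusted p = 0.209). Ccng1, the most abundant of the list and a p53 target, had a log2 fold change of 0.08 (SE 0.14). Of 14 tested proliferation genes none had p under 0.05 by edgeR, and their median was 0.0057.

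The relatives of Vcam1 and of the keratins were mostly too sparse to test. Of 25 adhesion, chemokine and NF-kB target genes 9 were tested, and 2 were higher at unadjusted p under 0.05 (22.2%, against 4.43% higher among all genes): Nfkbia, the inhibitor of NF-kB, at 0.40 (SE 0.17) and Birc3, an inhibitor of apoptosis, at 0.87 (SE 0.40) on the log2 scale. The median of the 9 was -0.06, and Madcam1 and Il6 were at 0 in all kidneys. Of 22 other intermediate filament genes and linkers 10 were tested, and none had p under 0.05 by edgeR. Dst, the most abundant, had a log2 fold change of -0.11 (SE 0.18).

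The genes whose levels most closely followed each member over the 10 kidneys, with group means removed and among 5791 genes of at least 20 CPM, had Pearson r between 0.869 and 0.954. They were Cox6c and Gatad2a for Spp1, Smarce1 and Kcnq1 for Clu, Las1l and Morn2 for Krt8, Tom1l1 and Plin2 for Krt18, Lcp1 and Yipf3 for Vcam1, Fxr2 for Vim, and Calr and Exoc8 for Cdkn1a. Plin2 coats lipid droplets and Lcp1 is an actin-bundling protein of leukocytes, and the r values were 0.899 with Krt18 and 0.896 with Vcam1. All points share library, depth and normalization, and these values are a description. For Havcr1, whose group means were not removed and which was added after its values were seen, the nearest were Irx1 (r = 0.949), a nephron transcription factor, and Akr1c18 (r = 0.944), an aldo-keto reductase that breaks down progesterone. Akr1c18 stood at 1.72, 24.8, 115.3 and 75.7 CPM in rilmenidine kidneys 1 to 4, and Irx1 at 12.6, 31.1, 71.6 and 41.2 CPM, in the order of Havcr1.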

How the data were processed

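Gene counts per kidney library were used as deposited by the authors. Per the labels, poly(A) RNA libraries followed the CEL-Seq2 protocol of Hashimshony et al., and bcl2fastq 1.8.4, Trimmomatic 0.32, STAR 2.5.2b and featureCounts 1.5 are named, with mm10. Strand setting, annotation release and handling of molecular barcodes are not given in the sources used here. Of 43629 gene IDs, 42462 received a symbol from GENCODE M21 (GRCm38). Groups came from the titles. Genes reaching 6 reads in 7 or more of the 10 libraries were tested with the edgeR 4.0.16 quasi-likelihood test after RLE scaling, without covariates, with Benjamini-Hochberg adjustment over 10055 genes. Members under this filter were compared by exact permutation in scipy 1.17.1. A gene was named when it was a member, when it was among at most 4 genes of a list with the smallest unadjusted p under 0.05 (the text gives all 7 injury genes) or was the most abundant of its list, or when it was 1 of the 2 most correlated genes, of which 1 is not reported here. Genes named for kidneys that stood apart, and Havcr1's neighbours, were added after values were seen. The members and all 20 lists were chosen with earlier results of these data known. On simulated counts modelled on these libraries, 175 of the 188 tested genes changed by 1.5 on the log2 scale were recovered, with 10 false calls. When no gene was changed, 1 false call was made. A change of 1.5 exceeds that of every tested member, of which Krt18 had the largest at 1.11. Recovery of smaller changes was not simulated. Alternatives were another scaling (TMM), other filters, DESeq2 1.42.0, a likelihood ratio test, 2 covariates, a replicate block and leaving out libraries. No 2 libraries agreed within sampling noise (lowest chi-square per degree of freedom 3.7).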

Additional observations from a re-analysis of the deposited data

Results flagged for a closer look

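In 5 of the 20 sets formed by the 10 genes and the 2 groups, the highest kidney lay farther from its group than Dixon's 95% limit allows. Chance flags about 1 in 20 only where values are normally distributed. CPM was used here without a log, and some sets hold few counts, so that rate need not hold and the flags are a description. In the control group these were Clu in control 6 at 202 CPM (gap 0.656 of the range), Vcam1 in control 2 at 12.4 CPM (0.657) and Cdkn1a in control 5 at 45.1 CPM (0.667). In the rilmenidine group they were Lcn2 in rilmenidine 4 at 1.55 CPM (0.836), which rests on 5 counts, and Sox9 in rilmenidine 2 at 5.79 CPM (0.839), which rests on 11 counts. The causes of these values were not tested.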

How the results depend on the processing

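Of all genes tested, the number with adjusted p under 0.05, which was 0, became 241 with no filter on low counts, 60 with DESeq2, 44 with the likelihood ratio test, 3 with a replicate block, and 0 to 37 with 1 kidney left out (37 when control 6 was left out, 33 for control 2 and 6 for rilmenidine 1). The 3 members with unadjusted p under 0.05 became 1 when at least 10 counts were required in every sample, where 4 members were tested, 1 with Malat1 as a covariate (Clu, and none of the 3), 2 with log2 library size as a covariate (Spp1 lost) or the replicate block (Cdkn1a lost), and 2 to 4 with 1 kidney left out. Krt18 passed an adjusted p of 0.05 with no filter on low counts (log2 fold change 1.11), as did Havcr1. The sign of Clu turned with the replicate block (0.042), without controls 5 and 6 (0.079, an alternative chosen after seeing the data) and in the 7 libraries with at least 10 CPM of receptor genes (0.27), and it ranged from -0.30 to 0.076 with 1 kidney left out. The sign of Krt8 turned with log2 library size (-0.078) or Malat1 (-0.097) as a covariate, with a range of -0.013 to 0.21 over kidneys left out. Vcam1 turned with library size (-0.19), Malat1 (-0.17), the replicate block (-0.12), without controls 5 and 6 (-0.19) and in the 7 libraries (-0.51), and ranged from -0.24 to 0.40 over kidneys left out. Sox9 ranged from -0.31 to 0.59. The causes were not tested. Spp1, Krt18 and Havcr1 stayed higher and Cdkn1a lower in rilmenidine with each kidney left out, with log2 differences between 0.42 and 0.71 for Spp1, 0.88 and 1.32 for Krt18, 1.01 and 2.36 for Havcr1, and -1.04 and -0.42 for Cdkn1a. Havcr1 passed the filter and was tested without controls 1, 4 or 6 or rilmenidine 1, with edgeR adjusted p between 0.0604 and 0.523. The replicate numbers of the labels were not taken to pair the mice. Deviations of same-numbered kidneys correlated at 0.076, 0.078, -0.077 and -0.007, values that cannot show whether mice were paired by litter or handling. The block took Cdkn1a to -0.33 (adjusted p = 0.795, edgeR). Depth limits Lcn2 and Sox9 most, with 3 counts or fewer in 9 of the 10 kidneys each.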

Other observations

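Marker genes of nephron segments were given the same fit, with adjusted p above 0.05 by edgeR for all genes named here. Of all genes tested, 4.43% were higher and 6.13% lower at unadjusted p under 0.05, and differences between segments were not tested. Of 6 tested genes of the distal convoluted tubule, 3 were lower at unadjusted p under 0.05: the magnesium channel Trpm6 at -1.01 (SE 0.33), the thiazide-sensitive cotransporter Slc12a3 at -0.55 (SE 0.19) and its regulator Wnk4 at -0.34 (SE 0.15) on the log2 scale, and the list's median was -0.35. Of 9 tested principal-cell genes 3 were higher, the water channels Aqp4 at 2.12 (SE 0.51), Aqp2 at 0.58 (SE 0.15) and Aqp3 at 0.34 (SE 0.15), and the median was 0.115. Of 7 tested genes of the thick ascending limb, Umod and Egf were higher and the median was 0.40. Of 6 tested genes of the thin limb and inner medulla, the small heat-shock protein Cryab was higher at 0.94 (SE 0.17, edgeR adjusted p = 0.173), and of 19 proximal genes Miox, an inositol oxygenase, was higher at 0.39 (SE 0.18). Of 14 endothelial genes, Esam was higher at 0.43 (SE 0.19). The median was 0.123 for the thin limb and inner medulla list, 0.0976 for the proximal list and -0.0432 for the endothelial list.

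The tested genes of 8 further lists included none with unadjusted p under 0.05 by edgeR: intercalated cells (8), podocytes (8), parietal epithelium (4), stroma (14), immune cells (11), blood (4), adrenal and fat (3) and liver (3). None of 11 urothelial genes passed the filter on low counts. Aqp4 and the liver-type protease inhibitor Serpina1d had the same order over the treated kidneys as Havcr1. Aqp4 stood at 10.9, 31.1, 187.6 and 97.0 CPM and Serpina1d at 13.8, 122.7, 438.1 and 195 CPM in rilmenidine kidneys 1 to 4. How many of all genes share this order of 4 kidneys was not counted. The most abundant transcript of control 2 and of rilmenidine 2 was Gm10800, at 8.11% and 7.15% of counts.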
